A study of Homo sapiens with 6 samples.

Results

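The axon guidance ligands and receptors described here are 72 of the 57133 gene symbols in the count table, selected by matching gene names, with earlier results of these data known when the families were picked. They comprise the semaphorins of classes 3 to 7 with their plexin and neuropilin receptors, the ephrins with the EPH receptors, the SLIT ligands with the ROBO receptors, and the netrins with DCC, NEO1 and the UNC5 receptors. Of the 72 members, 37 are ligands and 35 are receptors. RNA-seq was performed in T98G, an established human glioblastoma cell line, after knockout of CBX8 by transfection of a plasmid with Cas9 and an sgCBX8 guide and puromycin selection. The knockout cells were then transduced with lentiviral rtTA and a doxycycline-inducible TetO-FUW vector and kept as antibiotic-selected stable lines. The vector was empty in the CBX8 KO group (libraries KO1 to KO3) and held wild-type CBX8 with an N-terminal V5 tag in the WT CBX8 re-expression group (libraries WT1 to WT3). All 6 libraries were from cells given doxycycline at 1 μg/ml for 72 h. The genotype label of the re-expression libraries reads wild type, whereas titles and methods describe CBX8 put back into the knockout line, and the latter is used here. Whether the knockout line was 1 clone, and whether replicates were separate cultures, is not given in the sources used here. The p-values therefore measure the spread between these libraries, which may be technical, and CBX8 re-expression and the separately selected line cannot be told apart.

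Axon guidance ligands are secreted or membrane-bound proteins that attract or repel a growing axon or a migrating cell. Secreted class 3 semaphorins bind neuropilins, which signal through plexins, whereas most other semaphorins bind plexins directly. Ephrins bind EPH receptor tyrosine kinases on neighbouring cells, and SLIT proteins bind ROBO receptors. Secreted netrins bind DCC, neogenin (NEO1) and UNC5 receptors. Each of these systems acts on the actin cytoskeleton. In gliomas the same systems are known for their part in cell migration, invasion and angiogenesis. CBX8 is a chromodomain subunit of the Polycomb repressive complex PRC1, and many developmental genes, guidance genes among them, are known Polycomb targets. The comparison here asks which of these ligand and receptor transcripts differed when WT CBX8 was put back.

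Total counts per library were between 7950190 and 8659796. CBX8 itself had 83 to 104 counts in the CBX8 KO libraries and 27791 to 31408 in the re-expression libraries (log2 fold change 8.22). No library of unmodified T98G cells was included, so the re-expressed level cannot be set against the level of the parental line. Among the glioma and glial markers, VIM had 21563 to 24449 counts, CD44 had 20126 to 24273 and SOX9 had 625 to 772, whereas SOX2, S100B and AQP4 were at 0 in all 6 and NES had at most 4 counts. Across all 14461 genes tested with edgeR's quasi-likelihood test, 1860 genes (12.9%) passed FDR < 0.05, of which 959 (6.63%) were lower and 901 (6.23%) were higher upon CBX8 re-expression. With scaling by library size alone the split was 592 lower and 1400 higher. With DESeq2 as the test, 38.3% of the called genes were higher. The median log2 fold change of all tested genes was 0.005. Throughout, higher and lower refer to WT CBX8 re-expression relative to CBX8 KO, log2 fold changes (± SE) have the same direction, and adjusted p is the quasi-likelihood p of edgeR after Benjamini-Hochberg adjustment over all tested genes. CPM is a gene's count scaled to the TMM-adjusted library size.

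The guidance genes ranged from no detected transcript to NRP1 at 284 to 329 CPM and SEMA3C at 269 to 319.6 CPM. On the scale of mean CPM per kb of canonical transcript, which allows genes to be compared, SEMA3C was highest with 61.2, followed by its co-receptor NRP1 with 54.3. The ephrin receptor EPHA2 (44.5) and the class 4 semaphorin receptor PLXNB2 (44.3) came next, and ROBO1 (21.3), EPHA4 (16.9), NRP2 (16.5), PLXND1 (14.7) and SLIT2 (13.3) followed. Every system therefore had at least 1 transcribed receptor. The best expressed netrin was NTN4 with 6.97 CPM per kb, and its family's receptor NEO1 had 3.54. At the other end, 9 members had 0 counts in all 6 libraries, a result that allows up to 3 counts in each. These were the netrin receptors DCC and UNC5D, the ephrin receptors EPHA3, EPHA6, EPHA7, EPHA8 and EPHA10, and the semaphorins SEMA3E and SEMA5B. A further 15 members had counts but fell below the count filter, which left 48 of the 72 members tested.

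**Figure D1:**
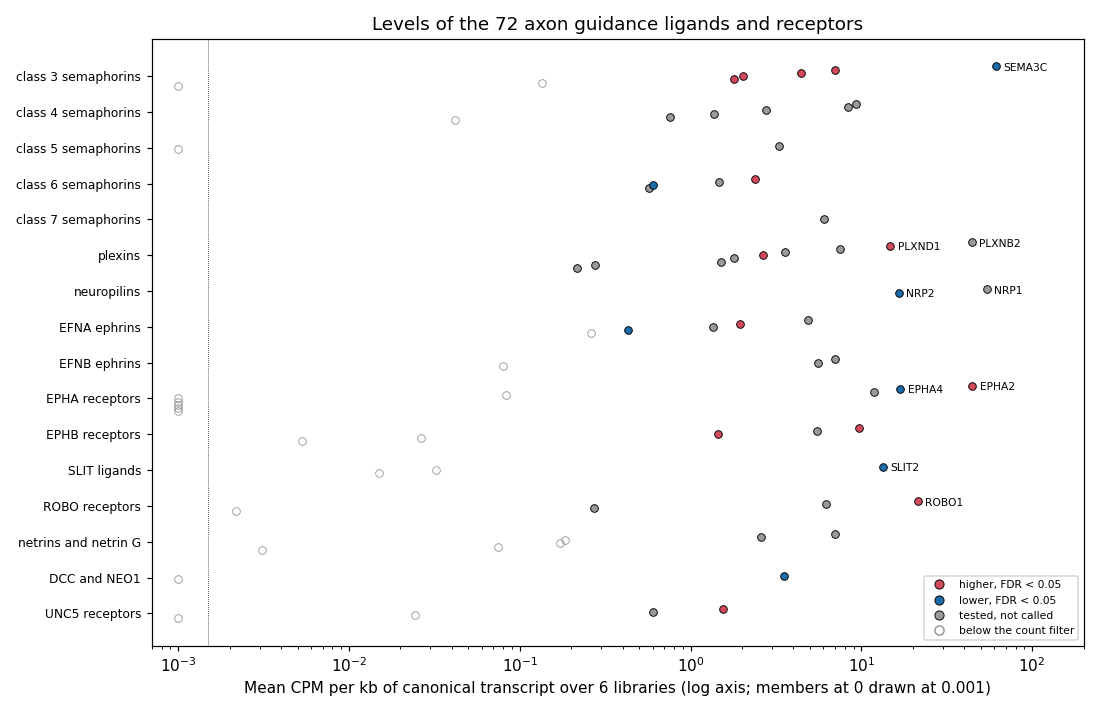
Mean level of each of the 72 members over the 6 libraries, in CPM per kb of canonical transcript on a log axis, by family, with colours for the edgeR call (red higher, blue lower upon CBX8 re-expression) and open circles for members below the count filter. SEMA3C (61.2), NRP1 (54.3), EPHA2 (44.5) and PLXNB2 (44.3) are at the right, and the 9 members without counts are drawn at 0.001.

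Of the 48 tested members, 20 (41.7%) passed FDR < 0.05, beside 12.9% of all tested genes. Of the 20 called members, 13 were higher and 7 were lower upon CBX8 re-expression. Among tested genes with a mean of at least 50 counts, 16 of 37 members (43.2%) were called, beside 15.2% of the 10995 such genes. These were 11 higher and 5 lower, where 6.91% of such genes were higher and 8.29% lower. Ligands and receptors were both represented, with 10 of 25 tested ligands called (6 higher, 4 lower) and 10 of 23 tested receptors (7 higher, 3 lower). The fold changes were modest. The median absolute log2 fold change of called members was 0.48, against 0.34 for all called genes, and EFNA5 (-1.12) and SEMA3F (0.87) were the extremes. Over all 48 tested members 33 log2 fold changes were positive and 15 negative, with a median of 0.18, where 51.2% of all tested genes were positive. The 3 CPM values of each group did not overlap for 28 of the 48 members (19 higher, 9 lower), where 28.9% of all tested genes do not overlap. In RNA from whole cultures, fewer cells that express a gene and less RNA per cell cannot be told apart.

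**Figure D2:**
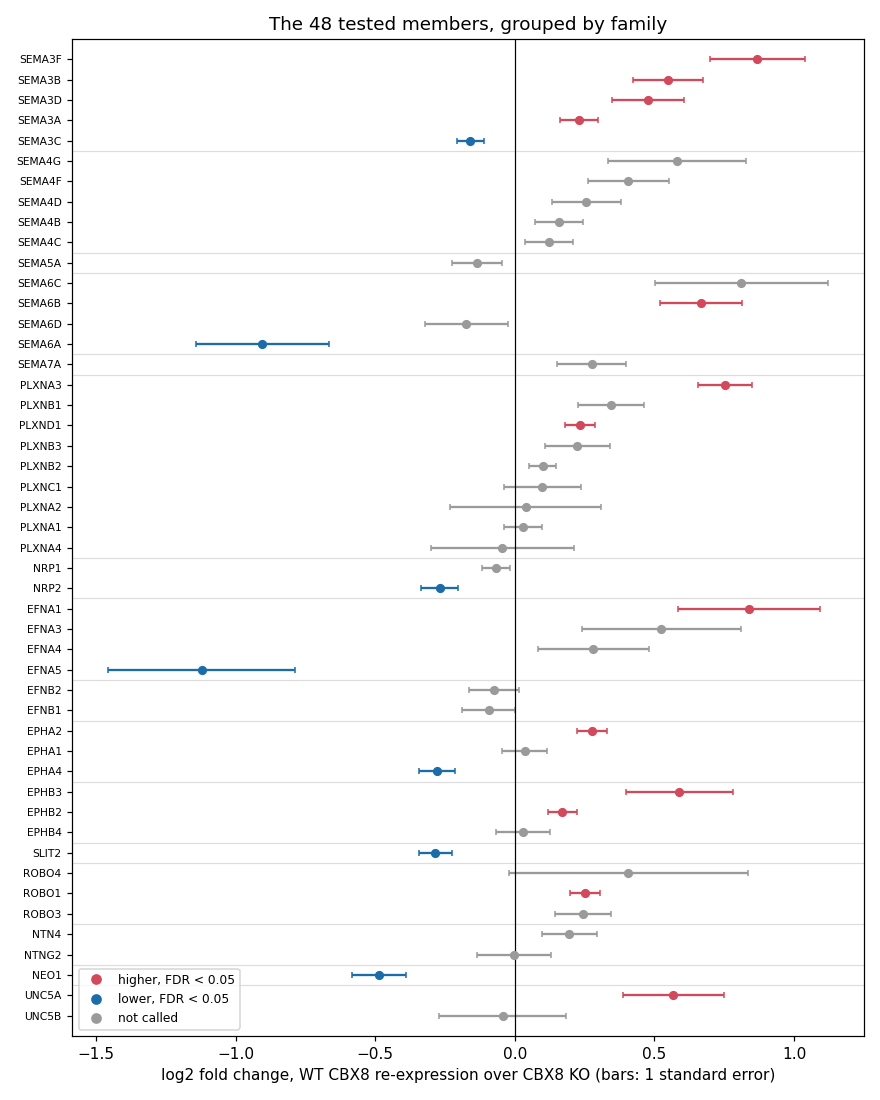
Log2 fold change of WT CBX8 re-expression over CBX8 KO for the 48 tested members, grouped by family, with bars of 1 standard error from the edgeR fit and colours for the call at FDR < 0.05. Class 3 semaphorins are the only family with more than 1 tested member in which all were called, and EFNA5 and SEMA6A lie farthest to the left.

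Promoter sequence is shown for a ligand and receptor pair that moved in opposite directions, SLIT2 (lower) and ROBO1 (higher), and for PLXNA3 and EPHA2, the receptors with the lowest adjusted p. The windows are the 250 bases before the RefSeq transcription start, read on the gene's own strand (GRCh38.p14). They lie outside exons and have every CG dinucleotide in capitals. SLIT2 is at chr4:20251655-20251904 on the plus strand and ROBO1 at chr3:79767999-79768248 on the minus strand. PLXNA3 is at chrX:154458031-154458280 on the plus strand and EPHA2 at chr1:16156070-16156319 on the minus strand.
SLIT2: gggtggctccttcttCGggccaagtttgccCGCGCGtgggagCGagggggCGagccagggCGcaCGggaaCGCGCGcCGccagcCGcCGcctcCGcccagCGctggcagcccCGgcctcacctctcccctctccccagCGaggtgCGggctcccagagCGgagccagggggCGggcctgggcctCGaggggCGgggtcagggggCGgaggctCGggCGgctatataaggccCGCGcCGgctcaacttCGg
ROBO1: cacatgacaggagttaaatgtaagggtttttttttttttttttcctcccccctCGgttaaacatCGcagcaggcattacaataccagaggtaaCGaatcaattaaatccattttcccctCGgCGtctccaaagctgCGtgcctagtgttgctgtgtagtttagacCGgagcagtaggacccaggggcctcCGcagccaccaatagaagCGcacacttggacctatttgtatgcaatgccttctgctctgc
PLXNA3: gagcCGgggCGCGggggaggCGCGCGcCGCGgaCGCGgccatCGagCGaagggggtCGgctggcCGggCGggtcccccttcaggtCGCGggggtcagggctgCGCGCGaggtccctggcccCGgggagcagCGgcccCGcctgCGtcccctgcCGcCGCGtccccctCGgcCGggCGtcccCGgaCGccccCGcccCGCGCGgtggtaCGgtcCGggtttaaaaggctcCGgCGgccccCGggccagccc
EPHA2: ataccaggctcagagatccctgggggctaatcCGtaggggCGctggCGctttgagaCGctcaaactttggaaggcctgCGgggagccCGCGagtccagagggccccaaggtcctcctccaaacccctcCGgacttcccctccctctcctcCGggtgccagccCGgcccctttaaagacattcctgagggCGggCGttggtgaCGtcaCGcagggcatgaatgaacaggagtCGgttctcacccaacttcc
CG dinucleotides are known as a feature of Polycomb target promoters in mammals. The PLXNA3 window has 41 CG dinucleotides, a number reached by 1.73% of the 35116 RefSeq promoter windows of this length, and the SLIT2 window has 30, reached by 12.4%. The EPHA2 window has 15 (reached by 42.9%) and the ROBO1 window 9 (reached by 54.1%). A RefSeq window was found for 61 of the 72 members, and their median was 21 CG dinucleotides against 11 over all windows. Each member has 1 window, the nearest to its canonical start, whereas the 35116 windows were taken without such a choice. The windows of SEMA3B (14 bases), NEO1 (561), SEMA4D (2457), PLXNB2 (5977) and EPHB6 (7680) lie away from the canonical start. The 6 windows of members called lower had 28 to 41, with a median of 30. The 11 windows of members called higher ranged from 9 to 42, with a median of 24, so their range contains that of the lower members. The median was 24 in the 42 windows of tested members. Among the untested members with a window it was 15. These counts describe the windows, and binding of CBX8 to them was not measured in these libraries.

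The class 3 semaphorins were the only family with more than 1 tested member in which every tested member changed, with 4 of 5 higher and SEMA3C lower upon CBX8 re-expression. SEMA3F, a repellent ligand that acts through NRP2, was at 5.93, 4.28 and 5.25 CPM in KO1 to KO3 and at 10.9, 8.91 and 8.33 CPM in WT1 to WT3. The groups did not overlap, and SEMA3F rose by 0.87 ± 0.17 on the log2 scale (adjusted p = 0.00083, edgeR). SEMA3B maps to the same stretch of chromosome 3 (50267558 to 50277546, with SEMA3F at 50155045 to 50189075, hg38). SEMA3B was at 10.2, 12.6 and 11.8 CPM in KO1 to KO3 and 18.5, 17.9 and 14.3 in WT1 to WT3. Every re-expression library was above every KO library, with a log2 fold change of 0.55 ± 0.13 (adjusted p = 0.0034, edgeR). Both genes overlap an annotated antisense gene (SEMA3F-AS1 and SEMA3B-AS1). The strand setting of the counting is not given in the sources used here, so reads of each pair cannot be told apart. The same limit holds for the called members EPHA4, EPHB2, NRP2, PLXNA3, SEMA6A and UNC5A, which also overlap annotated genes on the other strand.

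SEMA3A, the founding axon repellent of the family and an NRP1 ligand, had 51.6 to 53.9 CPM in the CBX8 KO libraries and 55.8, 63.2 and 65.8 CPM in WT1 to WT3 (log2 fold change 0.23 ± 0.07, adjusted p = 0.027, edgeR). WT1 lay close to the KO libraries. SEMA3D, a further secreted member, rose from 10.1 ± 1.53 to 14.1 ± 0.76 CPM (SD, n = 3 each), with a log2 fold change of 0.48 ± 0.13 (adjusted p = 0.013, edgeR). SEMA3C, the most abundant member per kb and known to promote glioma growth, was at 316, 319.6 and 308 CPM in KO1 to KO3 and 292, 269 and 285 CPM in WT1 to WT3. The groups were apart but close, and SEMA3C fell by 0.16 ± 0.05 on the log2 scale (adjusted p = 0.029, edgeR). The SEMA3A, SEMA3C and SEMA3D genes lie on the same chromosome, 7, and differed in direction. The summed CPM of the family was 388 to 397 in CBX8 KO and 373 to 392 upon re-expression, with SEMA3C as its largest part. SEMA3G had 4, 1 and 1 counts in KO1 to KO3 and 9, 9 and 10 in WT1 to WT3 and was below the count filter.

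The calls of SEMA3F and SEMA3B were kept with any 1 library left out, whereas those of the smaller changes were not. Such fits have fewer libraries. Over them the log2 fold changes were 0.18 to 0.29 (SEMA3A), -0.19 to -0.13 (SEMA3C) and 0.35 to 0.57 (SEMA3D). The SEMA3A call was lost without KO1, KO2, KO3, WT2 or WT3 (adjusted p of 0.053 to 0.16, edgeR). SEMA3C lost its call without KO1 (0.060), KO2 (0.12) or WT2 (0.20), and also with library size scaling, where its log2 fold change was -0.10 (adjusted p = 0.17). SEMA3D lost it without KO2 (0.12) or WT3 (0.054).

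None of the 5 tested class 4 semaphorins, membrane-bound ligands of the plexins B1, B2 and D1 among others, passed the threshold, although all 5 had higher CPM in every re-expression library than in any KO library. SEMA4B, the most abundant of the uncalled members of this class per kb, was at 34.0, 32.1 and 33.5 CPM in KO1 to KO3 and 35.6, 40.8 and 34.5 CPM in WT1 to WT3 (log2 fold change 0.16 ± 0.09, adjusted p = 0.27, edgeR). The log2 fold changes of SEMA4C (0.12), SEMA4D (0.26), SEMA4F (0.41) and SEMA4G (0.58) had adjusted p-values of 0.065 or more. After correcting for GC content and transcript length all 5 were smaller, at 0.09 (SEMA4B), 0.05 (SEMA4C), 0.22 (SEMA4D), 0.35 (SEMA4F) and 0.52 (SEMA4G). The summed class 4 CPM was 82.8 to 85.5 in CBX8 KO and 92.4 to 100.5 upon re-expression. Higher values in all libraries of a group were seen for 14.4% of all tested genes. SEMA4A, the sixth gene of the class, had 3, 4 and 0 counts in WT1 to WT3, with 0 in each KO library.

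The class 6 semaphorins, transmembrane ligands of the A-type plexins, held 1 member that rose and 1 that fell. SEMA6B was at 7.83, 7.49 and 6.02 CPM in KO1 to KO3 and 11.3, 10.2 and 12.5 CPM in WT1 to WT3. All re-expression libraries were higher, with a log2 fold change of 0.67 ± 0.15 (adjusted p = 0.0025, edgeR). SEMA6A went the other way, from 4.92, 4.99 and 6.14 CPM to 2.35, 2.17 and 4.05 CPM, a fall of 0.90 ± 0.24 on the log2 scale (adjusted p = 0.011, edgeR). WT3 stood nearest to the KO libraries, and the call was lost without KO3 (adjusted p = 0.054) or WT2 (0.080). SEMA6A, too, overlaps annotated antisense genes (SEMA6A-AS1 and SEMA6A-AS2). SEMA6C (log2 fold change 0.81, adjusted p = 0.087, edgeR) and SEMA6D (-0.17, adjusted p = 0.52) did not pass the threshold. SEMA5A, a transmembrane ligand of class 5, had a log2 fold change of -0.14 (adjusted p = 0.37). The GPI-anchored SEMA7A, which binds PLXNC1, had 0.28 (adjusted p = 0.15).

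Among the semaphorin receptors, 2 of 9 plexins rose and NRP2 fell. PLXNA3, a plexin that pairs with neuropilins to transmit class 3 semaphorin signals, had the lowest adjusted p of all 72 members. Its CPM was 20.7, 22.5 and 21.8 in KO1 to KO3 and 41.1, 32.8 and 35.6 in WT1 to WT3. The lowest re-expression library was well above the highest KO library, and the log2 fold change was 0.75 ± 0.10 (adjusted p = 4.0e-06, edgeR). PLXNA3 lies on chromosome X from 154458281 to 154477779 (hg38) and overlaps LAGE3 on the other strand. PLXND1, a receptor of vascular patterning, was at 95.2, 92.3 and 92.7 CPM in KO1 to KO3 and 114.2, 106.9 and 108.2 CPM in WT1 to WT3 (log2 fold change 0.23 ± 0.05, adjusted p = 0.0038, edgeR). Both groups were tight and apart. After correcting for GC content and transcript length the PLXND1 value was 0.12 (adjusted p = 0.12), whereas PLXNA3 kept 0.62 (adjusted p = 4.3e-05).

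The remaining 7 plexins did not pass the threshold. PLXNB2, the most abundant plexin, had 274.1 ± 8.56 CPM in CBX8 KO and 293.7 ± 14.2 upon re-expression (SD, n = 3 each), with a log2 fold change of 0.10 ± 0.05 (adjusted p = 0.22, edgeR). WT2 lay within the KO range. PLXNB1, the receptor of SEMA4D, had a log2 fold change of 0.34 with adjusted p = 0.054, and its groups did not overlap. The other 5 were PLXNA1 (0.03), PLXNA2 (0.04), PLXNA4 (-0.04), PLXNB3 (0.22) and PLXNC1 (0.10). In sum the plexins had 491 to 518.6 CPM in CBX8 KO and 540.0 to 579.9 CPM upon re-expression.

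The neuropilins, which bind class 3 semaphorins and VEGF, were among the most abundant receptors. NRP2 was at 129, 122 and 108 CPM in KO1 to KO3 and 89.8, 106 and 103 CPM in WT1 to WT3. KO3 lay just above WT2, and NRP2 fell by 0.27 ± 0.07 on the log2 scale (adjusted p = 0.0064, edgeR). Its call was lost without KO1 (adjusted p = 0.056). NRP1 showed 313.5 ± 14.4 and 299.1 ± 12.9 CPM (SD, n = 3 each), with overlapping libraries and a log2 fold change of -0.07 ± 0.05 (adjusted p = 0.44). SEMA3F and PLXNA3 rose while NRP2, known as the binding receptor for SEMA3F, fell. These are 3 separate calls of the same 6 libraries.

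The ephrins, whose A class is held by a GPI anchor and whose B class spans the membrane, held 1 called member in each direction, both of the A class and low in counts. EFNA1, the main ligand of EPHA2, had 15, 19 and 18 counts in KO1 to KO3 and 38, 28 and 33 in WT1 to WT3. The groups did not overlap, and the log2 fold change was 0.84 ± 0.25 (adjusted p = 0.028, edgeR). EFNA5 had 35, 15 and 26 counts in the KO libraries and 15, 9 and 13 in the re-expression libraries, and fell by 1.12 ± 0.33 (adjusted p = 0.026, edgeR). KO2 and WT1 were level for EFNA5, at 1.78 and 1.76 CPM. At these counts both calls were lost with some of the libraries left out. Over all such fits the log2 fold changes were 0.72 to 0.96 (EFNA1) and -1.42 to -0.81 (EFNA5). EFNA1 lost its call without KO1 (adjusted p = 0.10), KO2 (0.071), WT1 (0.12) or WT3 (0.070), and EFNA5 without KO1 (0.19), KO3 (0.068), WT2 (0.13) or WT3 (0.051). EFNA1 has EFNA3 and EFNA4 as neighbours on chromosome 1, and these had log2 fold changes of 0.52 (adjusted p = 0.25) and 0.28 (adjusted p = 0.41). EFNA3 and EFNA4 both overlap the annotated gene EFNA4-EFNA3 on the same strand. The transmembrane ligands EFNB1 (-0.09, adjusted p = 0.59) and EFNB2 (-0.07, adjusted p = 0.67) did not pass the threshold either. EFNA2 had 1, 1 and 3 counts in KO1 to KO3 and 9 in each re-expression library, below the count filter, and EFNB3 had at most 3.

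The EPH receptor tyrosine kinases held 3 members that rose and 1 that fell. EPHA2, which is known to be abundant in glioblastoma, was at 155, 157 and 164 CPM in KO1 to KO3 and 178, 197 and 201 CPM in WT1 to WT3. All re-expression libraries were higher, and the log2 fold change was 0.28 ± 0.05 (adjusted p = 0.00068, edgeR). EPHA4, a receptor of both ephrin classes, moved oppositely, from 126, 122.9 and 105 CPM to 100.3, 90.1 and 102 CPM (log2 fold change -0.28 ± 0.06, adjusted p = 0.0037, edgeR). KO3 was the lowest of the KO libraries and stood close to WT3, and the EPHA4 call was lost without WT2 (adjusted p = 0.055). EPHA1 was at 38.8 ± 1.60 and 39.8 ± 2.39 CPM (SD, n = 3 each), with overlapping libraries, a log2 fold change of 0.04 ± 0.08 (adjusted p = 0.84) and exons shared with ZYX on the other strand.

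Of the EPHB receptors, EPHB2 was at 99.6, 103 and 102 CPM in KO1 to KO3 and 112, 117 and 112 CPM in WT1 to WT3. The libraries were tight within groups, and the log2 fold change was small at 0.17 ± 0.05 (adjusted p = 0.031, edgeR). The EPHB2 call was lost with any of the 6 libraries left out (adjusted p of 0.051 to 0.17), and with the GC and length correction its log2 fold change was 0.04 (adjusted p = 0.68). EPHB3 had 43, 34 and 41 counts in KO1 to KO3 and 79, 58 and 52 in WT1 to WT3 (log2 fold change 0.59 ± 0.19, adjusted p = 0.042, edgeR). WT1 was the highest of these and the groups did not overlap. Its call was lost without KO1 (0.063), KO2 (0.20), KO3 (0.061), WT1 (0.27) or WT2 (0.052), and with the GC and length correction (0.068). EPHB4, the receptor of EFNB2, had a log2 fold change of 0.03 ± 0.10 (adjusted p = 0.89). The remaining receptors were at or near 0, with at most 10 counts for EPHA5, 2 for EPHB1 and 1 for EPHB6. EPHB6 has a near-identical copy on an alternate contig, and its count is not read as absence.

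In the SLIT and ROBO system the detected ligand fell and its main receptor rose. SLIT2, a secreted repellent whose promoter is printed above, was at 119.9, 113 and 121 CPM in KO1 to KO3 and 87.7, 102 and 100.5 CPM in WT1 to WT3. Every KO library was higher, and SLIT2 fell by 0.29 ± 0.06 on the log2 scale (adjusted p = 0.0015, edgeR). ROBO1 was at 141, 137 and 127 CPM in KO1 to KO3 and 155, 166 and 160.5 CPM in WT1 to WT3. The groups were again apart, in the other direction, with a log2 fold change of 0.25 ± 0.05 (adjusted p = 0.0019, edgeR). Both calls were kept with any 1 library left out. ROBO3, a receptor of commissural axons, had 25.7 ± 2.21 and 30.4 ± 3.65 CPM (SD, n = 3 each), with a log2 fold change of 0.24 ± 0.10 (adjusted p = 0.12), and WT3 lay within the KO range. The endothelial receptor ROBO4 had a log2 fold change of 0.41 ± 0.43 (adjusted p = 0.61). SLIT1, SLIT3 and ROBO2 had at most 2, 5 and 1 counts in any library.

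In the netrin system 2 receptors changed while no ligand passed the threshold. NEO1 (neogenin), a DCC relative that also binds RGM proteins, had 242, 226 and 240 counts in KO1 to KO3 and 176, 177 and 184 in WT1 to WT3. The groups were far apart, and NEO1 fell by 0.49 ± 0.10 on the log2 scale (adjusted p = 0.00087, edgeR), a call kept with any 1 library left out. UNC5A, a dependence receptor that mediates netrin repulsion, had 30, 45 and 38 counts in KO1 to KO3 and 58, 62 and 58 in WT1 to WT3 (log2 fold change 0.57 ± 0.18, adjusted p = 0.037, edgeR). KO1 was lowest. The UNC5A call was lost without KO1 (0.17), KO3 (0.065), WT1 (0.071), WT2 (0.11) or WT3 (0.078), and with the GC and length correction (0.067). UNC5B had a log2 fold change of -0.04 ± 0.23 (adjusted p = 0.93) and UNC5C at most 5 counts.

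NTN4, a laminin-related netrin of basement membranes, was at 21.1, 23.3 and 26.2 CPM in KO1 to KO3 and 27.2, 28.0 and 25.6 CPM in WT1 to WT3. KO3 and WT3 overlapped, and the log2 fold change was 0.19 ± 0.10 (adjusted p = 0.22, edgeR). NTNG2, a membrane-anchored netrin G, had a log2 fold change of -0.004 (adjusted p = 0.99). NTN1, the canonical ligand of DCC, had 2, 7 and 8 counts in KO1 to KO3 and 8, 13 and 14 in WT1 to WT3 and was below the count filter. NTN3 and NTN5 had at most 4 counts and NTNG1 had 1.

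**Figure D3:**
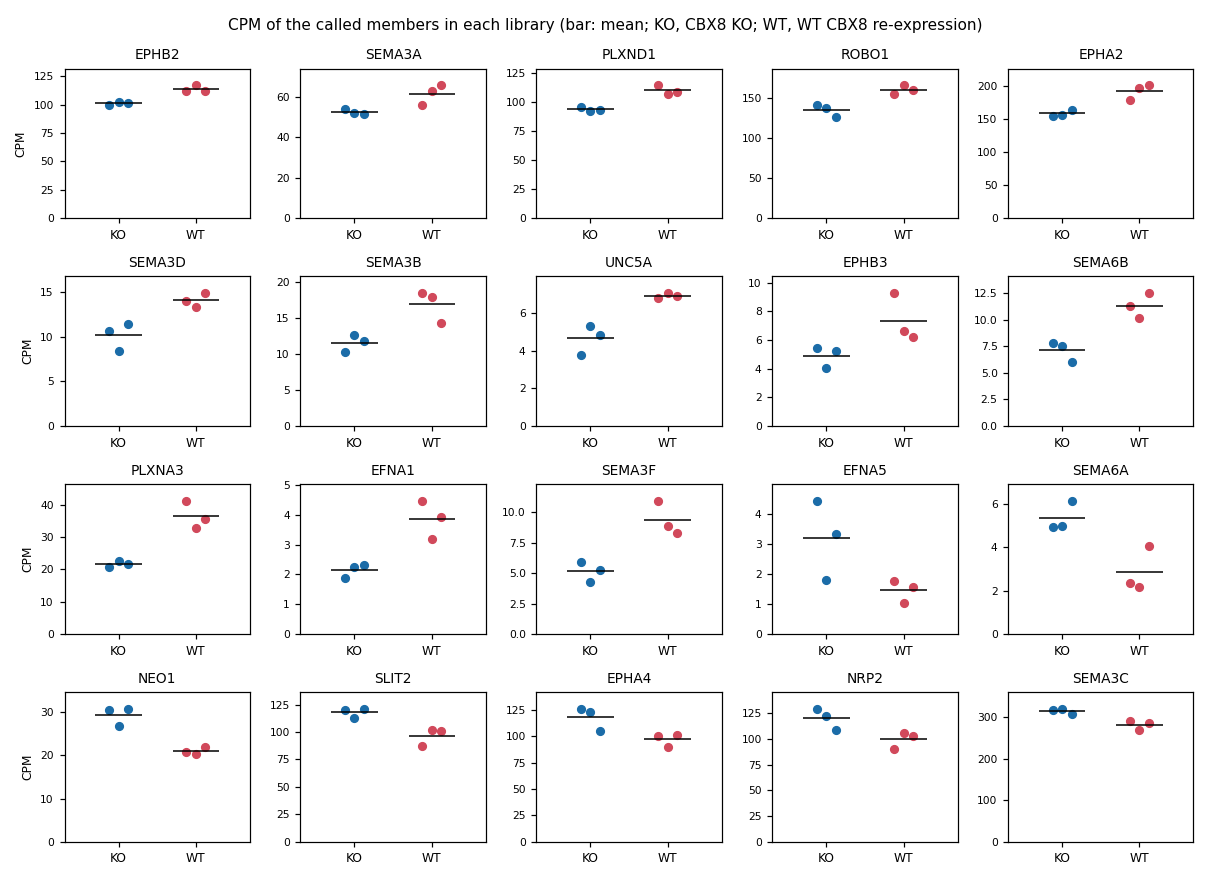
CPM of the 20 called members in each library, with 1 point per library and a bar at the mean of 3 libraries, each panel on its own axis from 0. The 13 members called higher come first and the 7 called lower last, and EFNA5 (1.78 against 1.76 CPM) is the member whose groups come nearest to each other.

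With regard to single libraries, 9 of the 20 called members kept FDR < 0.05 with any 1 library left out. They were the semaphorins SEMA3B, SEMA3F and SEMA6B, the receptors PLXNA3, PLXND1, EPHA2, ROBO1 and NEO1, and the ligand SLIT2. Of these 9, 7 were higher and SLIT2 and NEO1 were lower. The members lowest in counts, EFNA1 and EFNA5, and those with the smallest fold changes, EPHB2 and SEMA3C, were among the 11 that did not. Over all genes, too, fewer were called with 1 library left out, and the share that kept its call is not given here.

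Beyond the ligands and receptors, 57 intracellular effectors of these pathways were examined, of which 49 were tested, with 12 higher and 2 lower, a median log2 fold change of 0.05 and 28.6% called beside the 12.9% of all genes. ABLIM1, an actin-binding protein linked to netrin signalling, was at 0.48 to 1.01 CPM in CBX8 KO and 1.55 to 2.06 CPM upon re-expression (log2 fold change 1.33 ± 0.40, adjusted p = 0.026, edgeR). FYN, a SRC-family kinase downstream of plexins and DCC, was at 1.14 to 2.26 and 3.10 to 4.0 CPM (1.11 ± 0.29, adjusted p = 0.0096). Neither pair of ranges overlapped, but ABLIM1 lost its call without KO2 (0.14), KO3 (0.081), WT1 (0.056) or WT2 (0.11), and FYN without KO1 (0.064). SRGAP1, the GTPase-activating protein that binds ROBO1, rose by 0.42 ± 0.10 (adjusted p = 0.0041), and the RAC activator TIAM1 by 0.42 ± 0.13 (adjusted p = 0.036). The TIAM1 call was lost without KO1 (0.069), KO2 (0.12), KO3 (0.075) or WT3 (0.18). Counting every alternative run, TIAM1 lost its call in 9 of 17 and FYN in 2 of 17. Smaller rises were called for ROCK1, LIMK2, DOCK1, MICAL2, MICAL3, ABL2, VASP and PTK2. VAV3, a signalling protein that acts downstream of EPH receptors, fell by 0.75 ± 0.10 (adjusted p = 9.5e-06), from 26.1 to 28.8 CPM to 14.4 to 18.1 CPM, and DPYSL3 (CRMP4) fell by 0.15.

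Of 48 other guidance and adhesion molecules, 28 were tested, with 5 higher, 6 lower and a median of 0.01. That is 39.3% called beside the 12.9% of all genes, close to the 41.7% of the ligands and receptors, so a high share of calls is not shown to be particular to the latter. NFASC (neurofascin), an L1-family adhesion molecule, was at 0.25 to 1.02 CPM in CBX8 KO and 1.26 to 1.90 CPM upon re-expression (log2 fold change 1.38 ± 0.44, adjusted p = 0.038, edgeR), and L1CAM, MET, EXT1 and ITGB1 also rose. GFRA1, the GDNF co-receptor, fell from 55.2 to 62.5 CPM to 35.4 to 41.3 CPM (-0.62 ± 0.08, adjusted p = 1.8e-06). The neurotrophin receptor NTRK3 (-1.03 ± 0.30, adjusted p = 0.019) and the WNT5A receptor ROR1 (-0.42 ± 0.11, adjusted p = 0.0093, but 0.085 with DESeq2) also fell. So did the ligands WNT5B (-0.33 ± 0.09, adjusted p = 0.018) and WNT5A (-0.33 ± 0.05), and the proteoglycan GPC1 (-0.26 ± 0.05). NFASC lost its call without KO1 (0.18), KO2 (0.12), WT1 (0.099) or WT3 (0.12). NTRK3 lost it without KO1 (0.10), WT1 (0.094) or WT2 (0.086). WNT5B lost its call without KO2 (0.092), KO3 (0.15) or WT3 (0.072), and its libraries overlapped between groups, with KO1 at 44.9 CPM below WT2 at 48.1 CPM.

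GC content of the transcript moved with the fold change of the members. Canonical transcripts of the 13 members called higher had a median GC content of 60.3% (36.7% to 67.9%), and those of the 7 called lower had 48.3% (37.1% to 50.5%). SEMA3A and SEMA3D, which rose, and SEMA3C, which fell, all lay near 37%. Over all tested genes with an annotated transcript the median was 47.9%, with 53.4% for genes called higher and 45.2% for genes called lower. Across the 48 tested members, which share their 6 libraries and are not independent replicates, the log2 fold change and GC content had r = 0.48 and rho = 0.50, and across 12611 tested genes r = 0.16 and rho = 0.18. After correcting for GC content and transcript length in each library, 15 of the 20 calls were kept (9 higher, 6 lower), and the median of the 48 members was 0.10 in place of 0.18. The share of all called genes that kept its call under this correction is not given here. The calls lost were EPHB2 (log2 fold change 0.04 in place of 0.17), PLXND1 (0.12 in place of 0.23), SEMA3C (-0.12 in place of -0.16, adjusted p = 0.054), EPHB3 (0.51 in place of 0.59) and UNC5A (0.49 in place of 0.57). The part of GC content in the remaining differences was not tested.

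**Figure D4:**
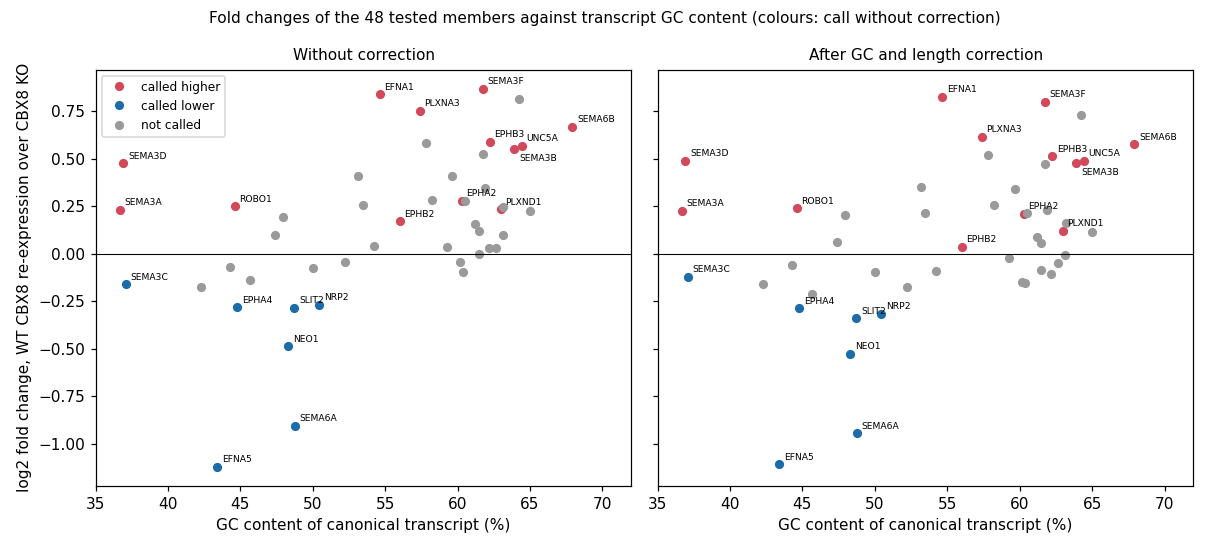
Log2 fold change of the 48 tested members against the GC content of the canonical transcript (%), without (left) and with (right) a correction for GC content and length, coloured by the call without correction. The members called lower lie at or below 50.5% GC and those called higher reach 67.9%, and EPHB2 moves from 0.17 to 0.04.

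Markers of neurons, endothelium and immune cells were mostly low or absent, the epithelial marker KRT8 was well expressed, and some markers moved with the condition. Of the neuron markers, STMN2 and GAP43 were at 0 and RBFOX3 had at most 1 count, while SNAP25 and SYT1 were detected without passing the threshold and MAP2 fell (log2 fold change -0.72, adjusted p = 0.00025, edgeR). The summed neuron markers were at 27.8 to 31.3 CPM in CBX8 KO and 25.4 to 27.4 upon re-expression. Of the endothelial markers PECAM1 and CDH5 had at most 1 count, and the list summed to 1.26 to 2.82 and 1.19 to 1.88 CPM. The immune markers summed to 2.02 to 2.94 and 2.17 to 3.06 CPM, with AIF1 at 0. Of the epithelial markers EPCAM had at most 3 counts and CDH1 at most 4, whereas KRT8 had 642 to 687 counts in CBX8 KO and 793 to 853 upon re-expression (50.1 CPM per kb over all libraries) and rose by 0.23. The epithelial list summed to 78.8 to 86.8 and 93.9 to 98.9 CPM. Of 6 tested glioma and glial markers, CD44 (-0.21), SOX9 (-0.27) and SLC1A3 (-0.45) fell and VIM, GFAP and OLIG2 did not pass the threshold. The part of these marker differences in the guidance gene results was not tested.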

How the data were processed

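The authors deposited a table of unnormalized counts by gene symbol for 6 libraries. Per the study's methods, paired-end reads of 100 bp from poly(A) RNA were trimmed with Trimmomatic and aligned to hg38 with HiSat2. How reads were counted (program, annotation and strand) is not given in the sources used here. Reads carry no molecular identifiers, so depth gives counting error only.

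Genes were filtered by filterByExpr in edgeR 4.0.16 (R 4.3.3), scaled by TMM and tested by glmQLFit and glmQLFTest with condition as sole factor, at a Benjamini-Hochberg FDR < 0.05 over all tested genes. The study's methods state edgeR and FDR < 0.05 only. SE is the absolute log2 fold change over the square root of F. Alternatives were other scalings, DESeq2 1.42.0, voom in limma 3.58.1, other filters, FDR < 0.01, replicate number as a block, and leaving out each library. A correction for GC content and length (natural splines with 3 degrees of freedom each, entered as offsets) was added after seeing the data, and 87.2% of tested genes had values. Annotation was GENCODE 44 on hg38. Near-identical copies (at least 95% of bases on an alternate contig) were found for 1 member, EPHB6.

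The members and both pathway lists were chosen with earlier results of these data known. Named in full are CBX8, all called members, the most abundant uncalled member of each family, and the 5 called genes of each pathway list with the largest absolute log2 fold change. Other members and genes are given so that each member and call is accounted for. Same-numbered libraries did not deviate together (correlations of -0.13 to -0.11), so the numbers were not taken as pairs.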

Additional observations from a re-analysis of the deposited data

How the results depend on the processing

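CBX8 kept its direction and call under every alternative run (8.15 to 8.27). The members numbered 7 lower and 13 higher in the fit reported. They were 5 and 7 with DESeq2 (lost: EFNA1, EFNA5, EPHB2, EPHB3, SEMA3A, SEMA3D, SEMA6A and UNC5A) and 4 and 7 at FDR < 0.01. With voom EFNA5 and EPHB3 were lost. With 1 library left out they were 3 to 7 lower (4 without KO1, 3 without WT2) and 8 to 10 higher (8 without KO1 or KO2). With the replicate number as a block 6 and 10 were called, and EPHB2, SEMA3A, SEMA3C and UNC5A were lost. The share of all genes called with this block is not given here. This block gave 1 effector lower and 2 other guidance molecules higher, and the numbers do not pair the libraries. Over all genes, library size alone gave 592 lower and 1400 higher, against 959 and 901 in the fit reported, DESeq2 419 higher, FDR < 0.01 gave 569 and 489, and leaving out 1 library gave 635 to 851 and 593 to 792 (the lowest of both without WT2). The share of higher calls over all genes was thus 48.4% in the fit reported and 70.3% with library size alone. It was 38.3% with DESeq2 and 42.0% with the GC and length correction. The share of all genes called with DESeq2 is not given here. With library size alone the median of all genes moved to 0.06, and of the members 16 were higher and 6 lower. Intracellular effectors called lower (2 in the fit reported) were 1 with upper quartile scaling, library size alone or FDR < 0.01, 4 with the GC and length correction, and 1 to 3 with 1 library left out (1 without KO2, WT2 or WT3). Effectors called higher (12) were 5 with DESeq2, 6 at FDR < 0.01 and 6 to 9 with 1 library left out (6 without KO2 or WT2, 7 without KO3). The other guidance molecules called higher (5) were 3 with DESeq2 or without the filter, 2 at FDR < 0.01 and 2 to 3 with 1 library left out, and those called lower (6) were 3 with DESeq2 and 5 with any 1 library left out. Without the filter SEMA3G (adjusted p = 0.016) and EFNA2 (0.010) were called. Tested but uncalled members also gained a call in some settings. These were PLXNB1 with upper quartile scaling, and SEMA4F, PLXNB1 and PLXNB2 with library size alone. SEMA7A was called without KO3, and SEMA6C and ROBO3 without WT3. Signs turned for uncalled members only, among those named by rule: UNC5B was 0.011 with library size alone and -0.22 to 0.10 with 1 library left out (0.04 without KO1, 0.06 without KO2, 0.10 without WT1), EPHB4 was -0.026 (without KO2) to 0.096, EPHA1 was -0.0090 (without WT2) to 0.075, and EPHA1 (-0.021), EPHB4 (-0.049) and PLXNB2 (-0.0078) turned with the GC and length correction, as did PLXNA1 (-0.11) and PLXNA2 (-0.09). The cause of these changes was not tested. EPHA2, NEO1, PLXNA3, ROBO1, SEMA3B, SEMA3F, SEMA6B and SLIT2 kept their direction and call at FDR < 0.05 under every alternative run. DESeq2 gave no adjusted p for ABLIM1 and NFASC. Depth limits the 24 members below the count filter, for which no difference could be tested in the fit reported.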
